A study of Saccharomyces cerevisiae with 2 samples.

Results

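Peroxisome biogenesis, fatty acid beta-oxidation and the carnitine shuttle were followed in yeast treated with paraquat through 48 genes, out of 6142 named genes in the deposited table. All 28 rows with a PEX gene name were taken, and 20 further genes were taken by name. They fall into 3 functions. Biogenesis holds 30 genes (the PEX genes with INP1 and INP2), beta-oxidation holds 14 (with the regulators OAF1 and PIP2) and the carnitine shuttle holds 4. All members passed the filter: 48 of 48 reached the minimum mean of 50 normalized reads used below.

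RNA was sequenced from a culture of the budding yeast BY4741 kept in 2.5 mM paraquat for 8 h in rich glucose medium (yeast extract, peptone, dextrose), and from an untreated culture of the same strain. Both are labelled as mid-log phase. BY4741 is haploid, of mating type a, and carries mutations in the marker genes HIS3, LEU2, MET15 and URA3, which both cultures share. Paraquat is a herbicide that takes electrons from cellular reductases and passes them to oxygen, which forms superoxide. No time is given for the untreated culture, so hours in culture and paraquat cannot be told apart. With 1 library per group no difference has a replicate check. Each fold is given with its 95% exact binomial interval, which takes reads as independent and covers counting error only.

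Named genes drew 165264107 reads in paraquat cells and 164909400 in untreated cells. As a check of mating type, 5 a-cell genes summed to 167886 normalized reads in paraquat and 251160 in untreated cells, and 4 alpha-cell genes to 7883 and 6581, most of it from SAG1 (66.0% and 72.0%). HIS3, of which the strain's allele removes only a part, had 12482 and 17852. Every log2 value is higher by 0.26 if libraries are scaled by their total reads on genes. The share of 2-fold calls that are higher is then 87.6%, against 66.9% as deposited. Lowly expressed genes had a higher median change than abundant ones (log2 0.27 in the lowest and -0.31 in the highest of 10 classes of mean level). Each member is therefore set beside the median of its class where the class matters. The values are RNA levels in whole cultures, and fewer cells with a transcript and less of it per cell cannot be told apart.

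Yeast oxidizes fatty acids only in peroxisomes. Fatty acids are activated to coenzyme A esters, enter through an ABC transporter and are shortened to acetyl-CoA, which leaves as acetylcarnitine or through the glyoxylate cycle. Peroxins build the organelle: soluble receptors carry matrix enzymes to a docking complex and are then marked with ubiquitin and pulled back to the cytosol. On glucose most of the beta-oxidation genes are repressed. On oleate the zinc cluster pair Oaf1 and Pip2, with Adr1, switches them on through oleate response elements.

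CRC1, which encodes the mitochondrial carrier of acetylcarnitine, was 3.87-fold higher after paraquat. The other 47 members lay within 2-fold. Of the 48 members, 1 was at least 2-fold higher (2.08%, against 3.08% of 5973 genes past the minimum) and 0 were at least 2-fold lower (against 1.52%). All genes past 2-fold in either direction made up 4.6%, so the members' shares are near the background. With scaling by total reads the members' counts stay at 1 and 0, against 5.22% of all genes higher and 0.737% lower. At 1.5-fold, 3 members were higher (6.25%, against 7.75% of all genes) and 0 were lower (against 5.88%). The members above 1.5-fold were CRC1, YAT1 and PEX21. Scaling by total reads puts 8 members above 1.5-fold (16.7%, against 16.9% of all genes) and 0 at least 1.5-fold lower (against 2.36%), the other 5 being POT1, PEX25, PEX17, PEX31 and CAT2. The median log2 change was 0.03 over the members and 0.00 (-0.0029) over all genes, and the median size of a change, regardless of sign, was 0.24 in members and 0.22 in all genes. By the authors' deposited table, adjusted p-values fell under 0.05 for 0 members and 0% of all genes, and the lowest of a member was 0.999. CRC1 was the 1 member with an unadjusted p under 0.05 in the authors' deposited table (0.0297), and 2.12% of all genes had one. The next lowest unadjusted p of members in the authors' deposited table were 0.149 for YAT1 and 0.176 for PEX21.

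By function, the carnitine shuttle had 4 of 4 genes above 0 and a median log2 change of 0.51, biogenesis 16 of 30 and a median of 0.02, and beta-oxidation 6 of 14 and a median of -0.15. As deposited, 49.7% of all genes past the minimum were above 0. The median of beta-oxidation turns to 0.11 with scaling by total reads, where the median of all genes turns to 0.26. Above 0 are then 38 of 48 members and 4693 of 5973 genes. That scaling lifts 12 of the 22 members below 0 to above 0, among them PEX3, PEX6, PEX8, PEX11, PEX14, PEX27, PEX28, OAF1, FAA2, PXA1 and TES1. Of every 100000 reads on genes, members took 292 in paraquat and 252 in untreated cells. The highest class of mean level took 58.6% of reads on genes in paraquat and 64.9% in untreated cells.

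**Figure D1:**
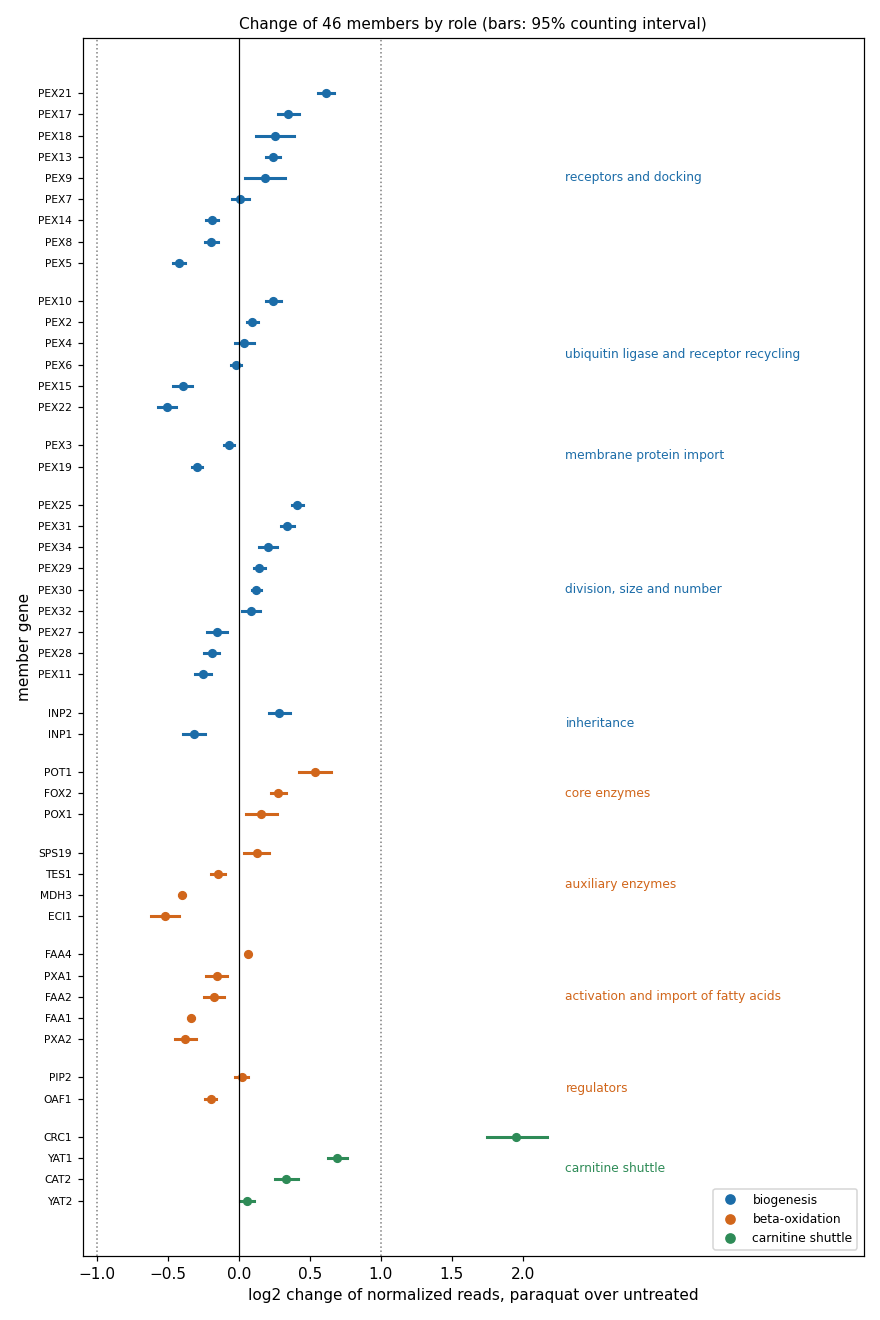
Log2 change of normalized reads, paraquat over untreated (horizontal axis), for 46 of the 48 members, grouped by role. Points are the 2 libraries' ratio, bars the 95% counting interval, and dotted lines mark 2-fold. CRC1 at 1.95 is the 1 gene past the 2-fold line, and the other members drawn lie between -0.52 and 0.69.

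A sequence known from promoters of this pathway was more frequent in the members' promoters than in those of all genes. The members were chosen by name as genes of the pathway, so this higher share is not independent of the choice. The oleate response element, the binding site of Oaf1 and Pip2, was searched on both strands as CGGN3TNAN9-12CCG, in windows of 250 bases before to 50 bases after the start codon in the RefSeq R64 genome. The authors' build is not given in the sources used here, and the reads were not placed by these coordinates. A match stands in 11 of 48 members' windows (22.9%) and in 54 of 6001 windows of all genes (0.9%), so members make up 20.4% of all genes with a match. The sites lie 107 to 165 bases before the start codon (median 142). In the other 43 genes with a match, the distance ran from 222 bases before the start codon to 46 bases past it (median 128 before it). Of these, 14 lay in the members' stretch, which was set by the members' own sites, so all members lie in it by definition. The sites of these 11 members are shown because Oaf1 and Pip2 are the activators of the pathway on oleate. The other 37 members, CRC1, FOX2 and POX1 among them, have no match in this window. A site farther upstream or of another form would be missed, so a missing match does not show that the element is absent. Capitals mark the fixed bases, each site is written so that its CGG comes first, and sites in POT1 and PIP2 match on both strands and are shown on 1.
POT1, chrIX:41610-41632, minus strand: CGGggaTaAtagtattaacaCCG
ECI1, chrXII:707191-707213, minus strand: CGGgcaTaAgaaatattattCCG
SPS19, chrXIV:259412-259435, plus strand: CGGcgtTaAgtatatcaaactCCG
TES1, chrX:468389-468411, plus strand: CGGtgtTtAtgccgtctcttCCG
FAA2, chrV:184355-184377, minus strand: CGGcgtTaAagactgacggtCCG
PIP2, chrXV:1023348-1023368, minus strand: CGGaacTaAatataatctCCG
PEX5, chrIV:950388-950409, minus strand: CGGagtTaAtcgcgatgatCCG
PEX6, chrXIV:22754-22777, minus strand: CGGcgaTaAtcgtcaacacttCCG
PEX11, chrXV:48756-48778, minus strand: CGGcatTtAtctcggagaacCCG
PEX13, chrXII:537116-537139, minus strand: CGGaaaTaAaaaaaatttggcCCG
YAT1, chrI:190027-190048, minus strand: CGGggaTgAccgcggaccgCCG

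Genes with this element did not lie on 1 side. Of the 11, 5 were above 0 and 6 below, between log2 -0.52 in ECI1 and 0.69 in YAT1, with a median of -0.02 against 0.06 in the 37 members without a match. With scaling by total reads, PEX6, PEX11, FAA2 and TES1 move above 0. POT1 and ECI1 carry the element 165 and 150 bases before the start codon and had changes that differed by 1.06 on the log2 scale (counting interval 0.91 to 1.21). They are the highest and the lowest gene of beta-oxidation, a pair chosen after the values were seen. The looser form CGGN15-18CCG, which holds every match of the first, adds PEX25 among the members and stands in 4.1% of all windows. The core bases known from Adr1 sites, TTGGGG or TTGGAG, stand in 24 of 48 members' windows and 16.4% of all windows. Of those 24 members 10 were above 0 and 14 below, with a median log2 of -0.11 against 0.13 in the 24 members without these bases. With scaling by total reads, PXA1, FAA2, TES1, PEX3, PEX6, PEX11, PEX27 and PEX28 are among those of the 14 that move above 0.

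**Figure D2:**
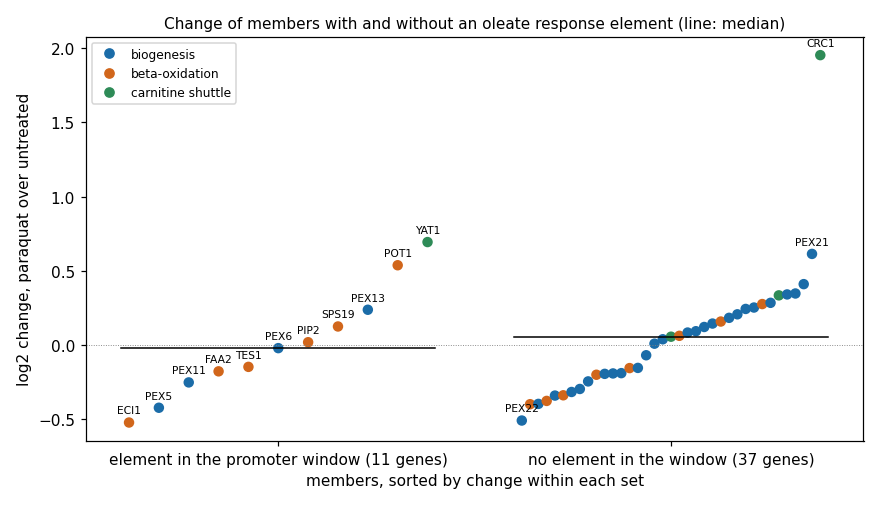
Log2 change, paraquat over untreated (vertical axis), of the 11 members with and the 37 members without a match to the oleate response element in the promoter window. Points are genes coloured by function, sorted by change, and the lines are medians, at -0.02 with and 0.06 without a match.

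The carnitine shuttle carries acetyl units into mitochondria as acetylcarnitine. CRC1 (YOR100C) encodes the carrier of the inner mitochondrial membrane. CRC1 had 954 normalized reads in the paraquat library (1045 reads before scaling) and 246 in the untreated library (225 reads). That is 3.87-fold higher (3.35 to 4.49), rank 33 from the top among 5973 genes. Its class of mean level had a median log2 change of 0.27, and CRC1 lay 1.69 above that. CRC1 had the lowest level per kb of coding sequence of all members in untreated cells, 250 normalized reads per kb, and 970 in paraquat cells, where it was 45th of 48.

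The promoter window of CRC1 is shown as that of the 1 member past 2-fold, on the minus strand at chrXV:514229-514528 (R64), with the start codon in capitals. None of the motifs searched is in it.
CRC1: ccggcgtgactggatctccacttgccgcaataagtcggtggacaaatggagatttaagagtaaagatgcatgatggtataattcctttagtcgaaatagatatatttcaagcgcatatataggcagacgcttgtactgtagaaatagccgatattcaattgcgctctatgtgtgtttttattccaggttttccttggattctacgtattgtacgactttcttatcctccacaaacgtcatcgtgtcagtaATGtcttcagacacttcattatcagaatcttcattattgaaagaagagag

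The genes on either side of CRC1 lay slightly on the other side of 0. RAS1, the next gene upstream, which runs the opposite way, had 14137 normalized reads in paraquat and 16304 in untreated cells (log2 -0.21). KTR1, the next gene downstream, had 38170.5 and 41949 (log2 -0.14). Both lie above 0 when scaled by total reads.

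Carnitine acetyltransferases load acetyl units onto carnitine and take them off again. YAT1, the enzyme of the outer mitochondrial membrane, had 4953 normalized reads in paraquat and 3062 in untreated cells, 1.62-fold higher (1.55 to 1.69). CAT2, the enzyme found in both peroxisomes and mitochondria, had 3033 and 2405, 1.26-fold higher (1.19 to 1.33). YAT2, the cytosolic enzyme, had 6245 and 6007, 1.04-fold higher (1.003 to 1.08).

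The 3 transferases therefore kept the order YAT1, CAT2, YAT2 in size of change. The log2 difference between YAT1 and YAT2 was 0.64 (0.55 to 0.72), and that between YAT1 and CAT2 was 0.36 (-0.36 for CAT2 minus YAT1, interval -0.46 to -0.26). CRC1 exceeded YAT1 by 1.26 (1.04 to 1.48). In level per kb of coding sequence, YAT1 was the highest of the 4 genes in paraquat cells (2400 normalized reads per kb, against 1483 in untreated cells), and YAT2 was the highest in untreated cells (2253 per kb in paraquat, against 2167 in untreated cells). All 4 genes lay above the median of their class, by 0.43 at the median. The summed normalized reads of the 4 genes were 15185 in paraquat and 11720 in untreated cells, and the median log2 change of the other 3 genes without CRC1 was 0.33. AGP2, the plasma membrane permease through which yeast takes up carnitine, had 5994 normalized reads in paraquat and 6022 in untreated cells.

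Beta-oxidation proper runs through 3 peroxisomal enzymes, and all 3 were above 0 but within 1.5-fold, which POT1 passes with scaling by total reads (log2 0.80). POT1, the thiolase that releases acetyl-CoA, had 1588 normalized reads in paraquat and 1094 in untreated cells, 1.45-fold higher (1.34 to 1.57). FOX2, the multifunctional hydratase and dehydrogenase, had 6540 and 5401, 1.21-fold higher (1.17 to 1.26). POX1, the acyl-CoA oxidase that makes hydrogen peroxide, had 1452 and 1301, 1.12-fold higher (1.03 to 1.204).

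POT1 and POX1 belong to the lowest class of mean level, whose median log2 change was 0.27. POT1 lay 0.27 above that median and POX1 lay 0.11 below it (-0.11), and FOX2 lay 0.27 above the median of its own class. FOX2 had the highest level per kb of the 3 in both libraries (2420 normalized reads per kb in paraquat and 1998 in untreated cells), and POX1 the lowest (646 and 579).

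Auxiliary enzymes of the pathway lay mostly below 0. ECI1, the isomerase that moves double bonds in unsaturated chains, had 1396 normalized reads in paraquat and 2005 in untreated cells, 1.44-fold lower (1.34 to 1.54). MDH3, the peroxisomal malate dehydrogenase that regenerates NAD, had 29443 and 38815, 1.32-fold lower (1.30 to 1.34). TES1, a peroxisomal thioesterase, had 6747 and 7472, 1.11-fold lower (1.07 to 1.14). SPS19, the dienoyl-CoA reductase, was the exception with 2231 and 2046, 1.09-fold higher (1.03 to 1.16). Against the median of their class, 0 of these 4 genes lay higher, and SPS19 was level with it (-0.007). ECI1 had the lowest log2 change of all 48 members, at -0.52, where its class had a median of 0.13. With scaling by total reads, ECI1 stays below 0 at -0.26 and MDH3 at -0.14, and TES1 turns to 0.11.

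Acyl-CoA synthetases and the peroxisomal importer also lay below 0 in 4 of 5 genes, with a median log2 of -0.18 that turns to 0.08 with scaling by total reads. FAA4 and FAA1, the main synthetases for imported long-chain fatty acids, parted. FAA4 had 110993 normalized reads in paraquat and 106314 in untreated cells, 1.04-fold higher (1.035 to 1.053). FAA1 had 36486 and 46139, 1.26-fold lower (1.25 to 1.28). The log2 difference of FAA1 minus FAA4 was -0.40 (-0.42 to -0.38).

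FAA4 is in the highest class of mean level, whose median was -0.31, and it lay 0.38 above that median. That class is wide, with means from 49621 to 4.06e+06 normalized reads, and FAA4 at 108654 is nearer its lower end. FAA1 lay 0.25 below the median of its class (-0.25). FAA2, the peroxisomal synthetase for medium chains, was at log2 -0.18, but it overlaps another annotated gene, so its reads are uncertain. PXA1 and PXA2 encode the subunits of the ABC transporter. PXA2 had 2423 normalized reads in paraquat and 3145 in untreated cells, 1.30-fold lower (1.23 to 1.37), and PXA1 was at log2 -0.16. Per kb of coding sequence FAA4 was the most abundant of the 48 genes in both libraries (53234 normalized reads per kb in paraquat and 50990 in untreated cells). FAA4 held 49.7% of the function's summed normalized reads in paraquat and 44.3% in untreated cells. The summed reads of beta-oxidation were 0.93-fold of untreated (223126 in paraquat against 239792), and 0.84-fold without FAA4.

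**Figure D3:**
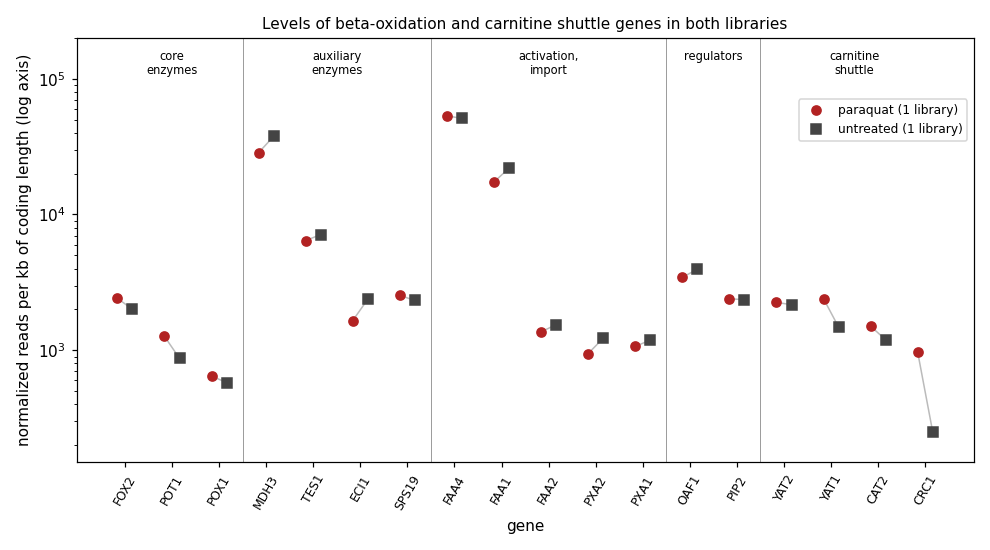
Normalized reads per kb of coding length (vertical, log axis) of the beta-oxidation and carnitine shuttle genes in the paraquat library (circles) and the untreated library (squares), 1 library each. CRC1 shows the widest gap (970 against 250 per kb), and FAA4, MDH3 and FAA1 the highest levels.

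The 2 regulators of the oleate response lay near 0. PIP2 had 7159 normalized reads in paraquat and 7065 in untreated cells (log2 0.02, interval -0.03 to 0.07). OAF1 had 10822 and 12433 (log2 -0.20), and turns to 0.06 with scaling by total reads. The counting interval of their difference did not reach 0 (OAF1 minus PIP2 -0.22, -0.28 to -0.16).

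Receptors and docking proteins were spread on both sides of 0, with 6 of 9 above it but 3 of 9 above the median of their class. PEX21, which with its paralog PEX18 helps the receptor Pex7 to import proteins with the N-terminal targeting signal, was the highest peroxin gene. PEX21 had 6865 normalized reads in paraquat and 4485 in untreated cells, 1.53-fold higher (1.47 to 1.59). PEX18 had 1016 and 853, 1.19-fold higher (1.09 to 1.31), in a class with a median of 0.27. PEX7 itself had 4634 and 4605, a fold of 1.01 (0.97 to 1.05).

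PEX5, the receptor for the C-terminal targeting signal that most matrix enzymes carry, was the lowest of this role. It had 7095 normalized reads in paraquat and 9510 in untreated cells, 1.34-fold lower (1.30 to 1.38). The coreceptor gene PEX21 and PEX5 thus lay apart by 1.04 on the log2 scale (PEX5 minus PEX21 -1.04, -1.11 to -0.97). This pair is the highest and the lowest of the role, chosen after the values were seen. PEX9, a receptor related to PEX5 known from oleate-grown cells, had 863 and 760, 1.14-fold higher (1.03 to 1.25), and was among the least abundant members per kb. Against the median of its class PEX9 lay slightly lower (-0.08).

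The docking proteins PEX13 and PEX17 lay above 0 and PEX14 below it. PEX17 had 3454 normalized reads in paraquat and 2715 in untreated cells, 1.27-fold higher (1.21 to 1.34). PEX13 was at log2 0.24 and PEX14 at -0.19. PEX8, which links docking and ligase complexes inside the organelle, was at -0.19. Scaling by total reads turns PEX14 and PEX8 to 0.07 and 0.06.

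Genes for ubiquitin ligases and receptor recycling had 5 of 8 members below 0 and a median log2 of -0.13, which turns to 0.13 with scaling by total reads. PEX22, the membrane anchor of the ubiquitin-conjugating enzyme Pex4, had 3483 normalized reads in paraquat and 4955 in untreated cells, 1.42-fold lower (1.36 to 1.49). PEX15, the membrane anchor of the recycling ATPase, had 2935 and 3863, 1.32-fold lower (1.25 to 1.38).

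PEX4, PEX6, PEX10 and PEX2 lay nearer 0. PEX4, the conjugating enzyme itself, was at log2 0.04, which is 0.55 above PEX22 (0.46 to 0.64). PEX6, an ATPase subunit of receptor recycling, was at -0.02, and turns to 0.24 with scaling by total reads. The RING ligase genes PEX10 and PEX2 were at 0.24 and 0.09.

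PEX3 and PEX19, which insert peroxisomal membrane proteins, were at -0.07 and -0.30. With scaling by total reads, PEX3 turns to 0.19 and PEX19 stays below 0 at -0.04.

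Genes that set the division, size and number of peroxisomes had 6 of 9 members above 0 and a median log2 of 0.12. PEX25, a membrane elongation factor, had 12304 normalized reads in paraquat and 9258 in untreated cells, 1.33-fold higher (1.29 to 1.37). Its relatives PEX11 and PEX27 lay below 0, at -0.25 and -0.15, and PEX11 minus PEX25 was -0.66 (-0.73 to -0.59). Both turn positive, to 0.01 and 0.10, with scaling by total reads.

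The reticulon-like family PEX30, PEX31 and PEX32 lay above 0 throughout. PEX31 had 8302 normalized reads in paraquat and 6554 in untreated cells, 1.27-fold higher (1.23 to 1.31). PEX30 was at log2 0.12 and PEX32 at 0.08, and their difference of 0.04 has an interval that covers 0 (-0.03 to 0.11). PEX29 was at 0.14 and PEX28 at -0.19, and PEX34 at 0.21. PEX35, listed by its systematic name YGR168C and so not among the 48, was at 0.10.

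The inheritance genes went apart. INP2, which links peroxisomes to the myosin that carries them into the bud, had 3481 normalized reads in paraquat and 2858 in untreated cells, 1.22-fold higher (1.16 to 1.28). INP1, which holds peroxisomes in the mother cell, had 2360 and 2938, 1.25-fold lower (1.18 to 1.31). The log2 difference of INP1 minus INP2 was -0.60 (-0.71 to -0.49).

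**Figure D4:**
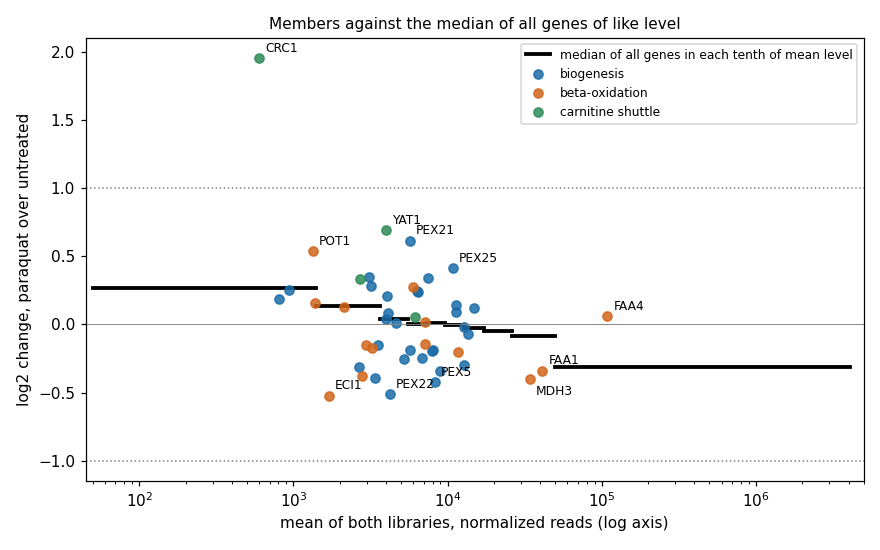
Log2 change, paraquat over untreated (vertical), against the mean normalized reads of both libraries (horizontal, log axis) for the 48 members. Black bars are the median change of all genes in each of 10 classes of mean level, from 0.27 in the lowest to -0.31 in the highest. CRC1 lies 1.69 above the bar of its class, and 20 of 48 members lie above theirs.

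Set against the median of their own class, 20 of 48 members lay above it, 12 of 30 in biogenesis, 4 of 14 in beta-oxidation and 4 of 4 in the carnitine shuttle. With classes built from means scaled by total reads, the counts were 21 of 48, 13 of 30, 4 of 14 and 4 of 4, and PEX4 was the member that crossed.

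Related genes were described from 6 further lists. In the glyoxylate cycle, the other route for peroxisomal acetyl-CoA, 6 of 7 genes were above 0, 3 were at least 2-fold higher (42.9%) and 0 lower, with a median log2 of 0.36. CIT2, the peroxisomal citrate synthase, had 45786 normalized reads in paraquat and 22115 in untreated cells, 2.07-fold higher (2.04 to 2.10). SFC1, the succinate-fumarate carrier, had 702 and 195, 3.60-fold higher (3.06 to 4.26), and ACO1, aconitase, was 2.45-fold higher (2.43 to 2.47). ICL1, the isocitrate lyase that opens the cycle's bypass, was at -0.01, and the malate synthase gene MLS1 at 0.36.

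Among 19 measured genes of other peroxisomal proteins, 11 were above 0, 2 were at least 2-fold higher (10.5%) and 0 lower. STR3, a peroxisomal cystathionine beta-lyase of methionine synthesis, had 8847 normalized reads in paraquat and 1843 in untreated cells, 4.80-fold higher (4.56 to 5.06). CIT2 is the other gene past 2-fold. CIT2, MLS1 and MDH2, all above 0, are also on the glyoxylate cycle list, so they are counted in both lists. GPD1, the glycerol phosphate dehydrogenase, was the lowest at log2 -0.70 (-0.39 against the median of its class). PCS60, a peroxisomal AMP-binding enzyme, was at -0.66, and ANT1, which brings ATP into the organelle, at -0.57. CTA1, the peroxisomal catalase, was at 0.24. DCI1, a close relative of ECI1, was at 0.14.

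Of 14 regulators of the fatty acid response and of glucose repression, 7 were above 0, 2 were at least 2-fold higher (14.3%) and 0 lower. Their median was -0.01, which turns to 0.25 with scaling by total reads. ADR1, the activator that acts with Oaf1 and Pip2, had 23446 normalized reads in paraquat and 6369 in untreated cells, 3.68-fold higher (3.58 to 3.79). SIP4, an activator of gluconeogenic genes, had 889 and 383, 2.32-fold higher (2.05 to 2.63). CAT8, which acts with it, was at log2 0.35, OAF3, a repressor of the oleate response, at 0.08, and GAL83 was the lowest at -0.55. The kinase gene SNF1 was at -0.03 and the glucose repressor gene MIG1 at 0.03.

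Fatty acid synthesis and activation had 3 of 11 genes above 0 and a median of -0.27 (-0.01 with scaling by total reads), with 0 past 2-fold either way. FAS2 and FAS1, the fatty acid synthase subunits, were at -0.86 and -0.81, the acyl-CoA binding protein gene ACB1 at -0.81 and the acetyl-CoA carboxylase gene ACC1 at -0.69. These are abundant genes, and against the median of their class they were at -0.55, -0.49, -0.72 and -0.37. Of the 11 genes, 4 lay above the median of their class. ELO1, a medium-chain elongase, was the highest at 0.41.

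Among 16 genes of acetyl unit supply and carnitine uptake, 6 were above 0, 0 were at least 2-fold higher and 1 lower, with a median of -0.29 (-0.04 with scaling by total reads). LAT1, the acetyltransferase of pyruvate dehydrogenase, had 52842 normalized reads in paraquat and 106799 in untreated cells, 2.02-fold lower (2.0004 to 2.04), but lay within 2-fold at log2 -0.76 with scaling by total reads. ALD6, the cytosolic acetaldehyde dehydrogenase, was at -0.96, and the acetyl-CoA synthetase genes ACS2 and ACS1 were at -0.71 and 0.18. PDA1, another pyruvate dehydrogenase subunit, was the highest at 0.32. Against the median of their class, LAT1, ALD6 and ACS2 were at -0.70, -0.65 and -0.40, and 6 of the 16 genes lay above theirs.

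Of 12 genes for fission, turnover and import helpers, 6 were above 0 and 0 passed 2-fold either way. VPS1, the dynamin that divides peroxisomes on glucose, was the lowest at -0.60, and CAF4, an adaptor of the other dynamin, the highest at 0.28. ATG36, the receptor for autophagy of peroxisomes, was at 0.23.

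**Figure D5:**
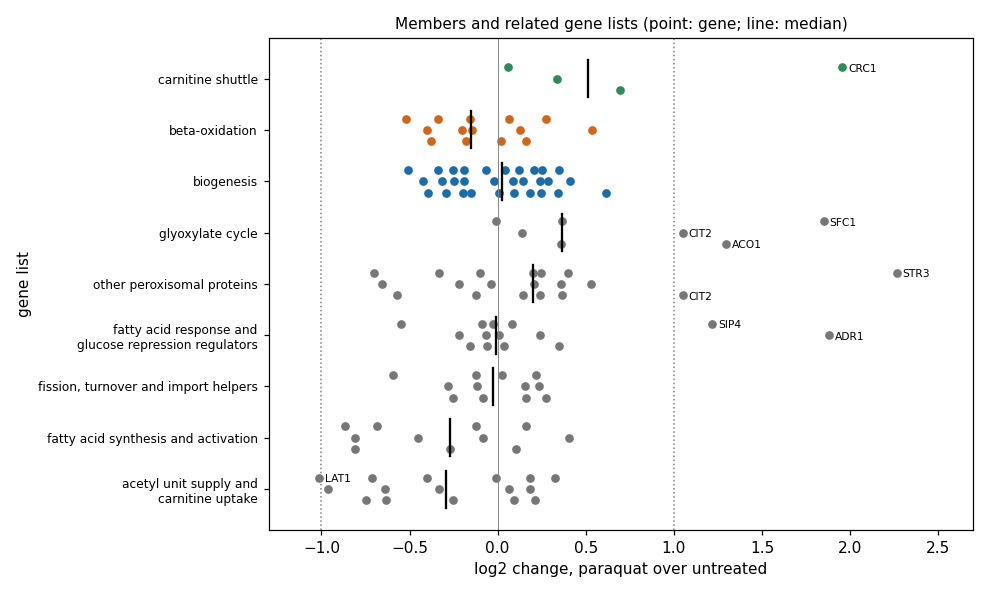
Log2 change, paraquat over untreated (horizontal), of the members by function and of the 6 related gene lists. Points are genes, black lines medians, and dotted lines 2-fold. Genes past 2-fold are named: CRC1, CIT2, ACO1, SFC1, STR3, SIP4 and ADR1 are higher and LAT1 is lower.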

How the data were processed

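The deposited table gives, per gene, a normalized signal in each library, a log2 fold change, and a p-value with its adjusted form. The signal holds read counts scaled by library: every deposited value is a whole multiple, within 0.01 read, of 1 step per column (0.913 in the paraquat and 1.10 in the untreated library). The deposited log2 values are the log2 ratio of paraquat over untreated signal (largest difference 8.38e-05). The deposited p-values are the authors' and were not recomputed, because 1 library per group leaves no replicates for a test. Per the submitters' processing notes, with no roles stated, the tools were DESeq2, featureCounts, Subread 1.5.2, STAR 2.5.2b and Trimmomatic 0.36. The sources used here do not give the build or whether counting used strand.

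The 1 row without a name (0.00675% of paraquat and 0.00449% of untreated reads) was left out. All 48 members matched RefSeq R64. None had a near-identical copy (at least 95% identity over 80% of its length, BLAST+ 2.17.0), and 1 overlaps another gene. The members and gene lists were chosen with earlier results of these data known. A gene is called at 2-fold if its mean reaches 50 normalized reads. Members at least 2-fold changed and the 3 highest and lowest of each function are given with both libraries' values, fold and interval. The pairs compared, and list genes that are neither the highest, the lowest nor past 2-fold, were chosen after their values were seen. Intervals of folds are exact binomial (Clopper-Pearson, 95%), and those of log2 differences between genes are normal approximations from the read counts. The scripts, tested on simulated counts, ran on matplotlib 3.10.9, scipy 1.17.1, pandas 2.3.3, numpy 2.4.6 and Python 3.11.15. Alternatives were scaling by total reads, centring, pseudocounts, other minimums, a 1.5-fold threshold and leaving out dominant genes. Scaling by total reads together with 1.5-fold, or with rebuilt classes, was added after seeing the data. PXP3 and the deleted marker genes LEU2, URA3 and MET17 were looked up by name without a match, and so were not analysed here. Single values of 2 members are not reported here, though counts and medians include them. Targeting signals in the proteins were not analysed here.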

Additional observations from a re-analysis of the deposited data

How the results depend on the processing

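No paired analysis was possible because each group has 1 library, and for the same reason no replicate could be left out. CRC1 stayed the 1 member at least 2-fold higher, and 0 were lower, under total-read scaling, centring on the median gene, no minimum or a minimum of 500, and with the counting interval beyond 2-fold. With a 1.5-fold threshold 3 members were higher, 1 in biogenesis and 2 in the carnitine shuttle, and 0 lower. Added after seeing the data, 1.5-fold with scaling by total reads gave 8 higher, 4 in biogenesis, 1 in beta-oxidation and 3 in the carnitine shuttle, and 0 lower. With scaling by total reads, the median log2 was 0.26 over all genes past the minimum and 0.29 over all members. It was 0.28 in biogenesis, 0.11 in beta-oxidation and 0.77 in the carnitine shuttle. For all members and these functions in turn, the log2 ratios of summed reads were 0.21, 0.25, 0.16 and 0.63. As deposited those ratios were -0.05, -0.01, -0.10 and 0.37. Without the most abundant gene of each they were -0.081, -0.019, -0.25 and 0.65. As a mean the change was -0.081 in beta-oxidation and 0.76 in the carnitine shuttle, whose median without CRC1 was 0.33. Pseudocounts of 1 and 10 and centring left all 48 members inside their counting intervals. Depth does not limit these values beyond the intervals, since the member with the fewest reads, CRC1, had 225 in untreated cells. The spread between cultures is unknown.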
